A study of Rattus norvegicus with 8 samples.

Results

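The proximal tubule of the kidney takes filtered proteins back from the pre-urine by receptor-mediated endocytosis, and 7 genes of this apparatus were followed here on gene arrays of rat kidney: Lrp2, Cubn, Amn, Dab2, Clcn5, Fcgrt and Lrpap1. They were taken by name, as every probe set of the array whose single gene symbol is one of these 7. This gave 9 probe sets of 31042 tested, a pair each for Amn and Lrpap1 and 1 for each other gene. All kidneys came from female Sprague-Dawley rats aged 29 weeks that had eaten the same formulated low-silicon feed for 26 weeks. Si deplete rats (4 arrays) drank low-silicon water and took in 0.17 mg Si per kg of body weight each day, and Si replete rats (4 arrays) drank water with orthosilicic acid and took in 4.1 mg Si per kg each day. Each array held RNA of the whole ground left kidney of 1 rat, so levels are averages over all kidney cells, and fewer proximal tubule cells cannot be told apart from less RNA of a gene in each.

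Megalin, the product of Lrp2, and cubilin, the product of Cubn, are giant receptors of the brush border that bind albumin, hormones, vitamin carrier proteins and many other filtered ligands. Cubilin has no membrane-spanning part of its own and is held in the membrane by amnionless (Amn). The receptor-associated protein (Lrpap1) is a chaperone that keeps new megalin from binding ligands too early on its way through the endoplasmic reticulum. Dab2 is an adaptor that links the tail of megalin to the clathrin coat, and Clcn5 encodes ClC-5, a chloride-proton exchanger of early endosomes whose loss causes Dent disease, with low molecular weight proteinuria. Fcgrt encodes the neonatal Fc receptor, which returns albumin and immunoglobulin G from endosomes.

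None of the 9 probe sets differed between the diets at an adjusted p under 0.1 by limma's moderated test (over all probe sets 0.151% did), and none had an unadjusted p under 0.05 (over all probe sets 14.9% did). Lrp2 and Cubn were bright and differed by less than 0.1 on the log2 scale. Lrpap1 was lower in every Si deplete kidney than in any Si replete kidney, on both of its probe sets, but did not pass. Si deplete replicate 1 had the lowest of the 8 levels on 7 of the 9 probe sets, whereas it was lowest on 22.2% of all probe sets and on 24.9% of the 15115 with a mean log2 level of 4 or more. On the first principal component over all probe sets, Si deplete replicate 1 lay farthest out, at 64.0. The other Si deplete arrays were at -1.9 to 19.2 and the Si replete arrays at -25.9 to -18.8, so this component also separated the diets. The log2 fold change of each member is given with and without Si deplete replicate 1. The 22 proximal tubule markers, among them the transporters Slc34a1 and Slc5a2 and the peptidase Anpep, had mean log2 levels of 7.98 (Acmsd) to 13.2 (Slc3a1), with none of them dim.

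The sequences shown here are 30-base stretches upstream of Lrp2, Cubn, Lrpap1 and Amn, the members with a match to a motif that was searched. They were taken from RefSeq promoters of the GRCr8 build and are printed along the gene's strand. The capitals mark CAAAGT, a core of sites bound by HNF4, a nuclear receptor of proximal tubule cells, in the first 3, and AGGTCA, a half-site of nuclear receptors, in the last.
Lrp2, chr3:74754686-74754715, minus strand: ctcccagagtcgCAAAGTgcagggggcggg
Cubn, chr17:81501715-81501744, minus strand: tattctgctggtCAAAGTgcaaccggctgg
Lrpap1, chr14:79875804-79875833, plus strand: aggttgcagcccCAAAGTgaaaatgccttg
Amn, chr6:136132462-136132491, plus strand: gggcggatgctaAGGTCActgagaagattc
Both strands were searched over the 250 bases before the start site, with 8 promoters for the 7 genes because Clcn5 has a pair. CAAAGT was found in 3 of the 8, against 12.9% of all 33469 promoters, and AGGTCA in 1 of the 8, against 14.1% of all. None of these matches overlapped another. The HNF1 half-site GTTAAT (6.45% of all promoters) and the CLEAR element of lysosomal genes, GTCACGTG (1.63%), were in 0 of the 8. A match is a description of these letters only, and the motifs were chosen after the levels and the promoters had been seen.

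In replicates 1 to 4, Lrp2 had log2 levels of 12.49, 12.99, 12.97 and 12.76 on the Si deplete diet and of 12.86, 12.89, 12.96 and 12.85 on the Si replete diet. The groups overlapped, with the lowest and the highest kidney both among the Si deplete. The means were 12.80 ± 0.23 (SD, n = 4) and 12.89 ± 0.05 (SD, n = 4), and the log2 fold change was -0.09 (standard error 0.12, adjusted p = 0.749 from limma). Its 95% interval of -0.35 to 0.17 is a 0.784-fold to 1.13-fold level. Without Si deplete replicate 1, the log2 fold change was 0.01, with an interval of -0.18 to 0.21.

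Cubn had log2 levels of 11.88, 12.20, 12.18 and 12.14 in Si deplete kidneys and of 12.22, 12.16, 12.23 and 12.17 in Si replete kidneys, in the same order of replicates. Apart from Si deplete replicate 1, the kidneys of both diets lay within 12.14 to 12.23. The log2 fold change was -0.10 (standard error 0.09, 95% interval -0.30 to 0.11, adjusted p = 0.65 from limma), and without that array it was -0.02 (95% interval -0.18 to 0.14).

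Amn, whose product carries cubilin to the surface, spread more. On its brighter probe set the log2 levels were 9.67, 10.55, 10.39 and 9.99 in Si deplete and 10.26, 10.29, 10.23 and 10.63 in Si replete kidneys. On the dimmer probe set they were 5.11, 6.44, 6.25 and 6.02 and then 6.12, 6.32, 5.97 and 6.71. Both probe sets placed Si deplete replicate 1 lowest and Si replete replicate 4 highest, and on both the groups overlapped. The log2 fold changes were -0.20 (standard error 0.19, adjusted p = 0.651 from limma) and -0.32 (standard error 0.28, adjusted p = 0.62). Each became -0.04 without Si deplete replicate 1, with 95% intervals of -0.39 to 0.31 and -0.45 to 0.37 that leave room for a modest difference in either direction.

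**Figure D1:**
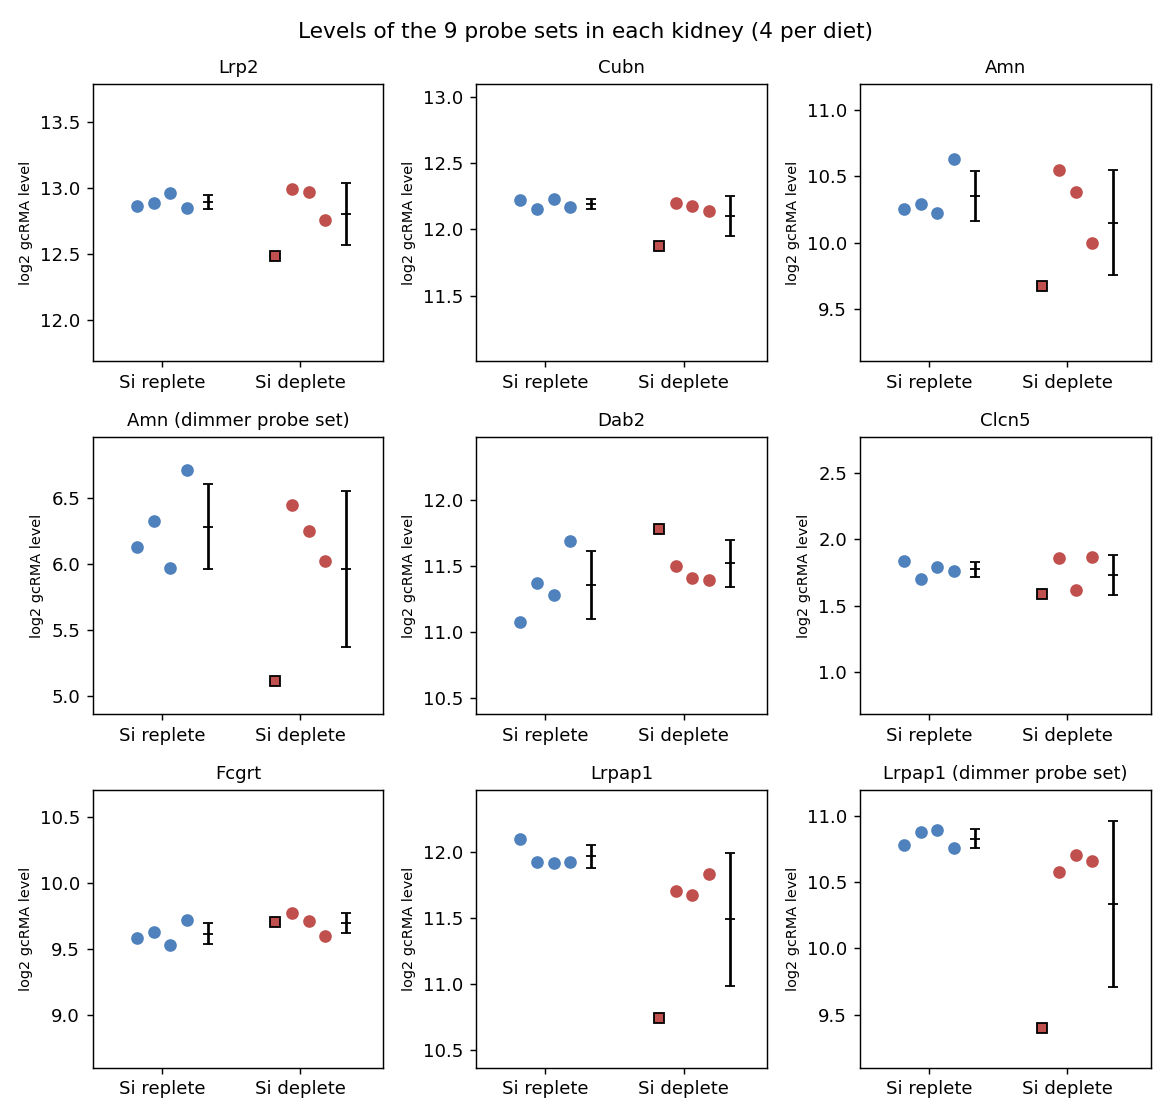
Log2 gcRMA level (y axis, 2.1 log2 units in every panel) of each probe set in 4 Si replete (blue) and 4 Si deplete (red) kidneys, replicates 1 to 4 from left to right, with the mean and SD of each group in black. Si deplete replicate 1 is the outlined square and is lowest on 7 of the 9 probe sets; the groups are apart on both Lrpap1 probe sets.

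Lrpap1 was the member with the largest differences. On the brighter probe set its log2 levels were 10.74, 11.71, 11.68 and 11.83 in Si deplete kidneys and 12.10, 11.93, 11.92 and 11.93 in Si replete kidneys. On the dimmer probe set they were 9.40, 10.58, 10.71 and 10.66 against 10.78, 10.88, 10.90 and 10.76. Every Si deplete kidney lay below every Si replete kidney on both, and Si deplete replicate 1 lay far below the rest. Of all probe sets, 9.37% separated the groups completely, 4.7% with Si deplete lower, and the pair of Lrpap1 probe sets reads the same gene. Counted by brightest probe set, 1 of the 7 genes was apart, beside 11.9% of all genes. The log2 fold changes were -0.48 (standard error 0.22, 95% interval -0.96 to 0.01) and -0.49 (standard error 0.26, 95% interval -1.09 to 0.10), at adjusted p-values by limma of 0.345 and 0.416.

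The size of the Lrpap1 difference rested on a single array. Without Si deplete replicate 1, the log2 fold changes were -0.23 (95% interval -0.42 to -0.03) and -0.18 (95% interval -0.36 to 0.00), or 0.854-fold and 0.883-fold, with unadjusted p-values of 0.0263 and 0.0517 and adjusted p-values by limma of 0.344 and 0.415. Relative to the Si replete mean, Si deplete replicates 2 to 4 were at -0.29 to -0.13 on the brighter probe set and at -0.25 to -0.12 on the dimmer, and Si deplete replicate 1 was at -1.23 and -1.43.

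**Figure D2:**
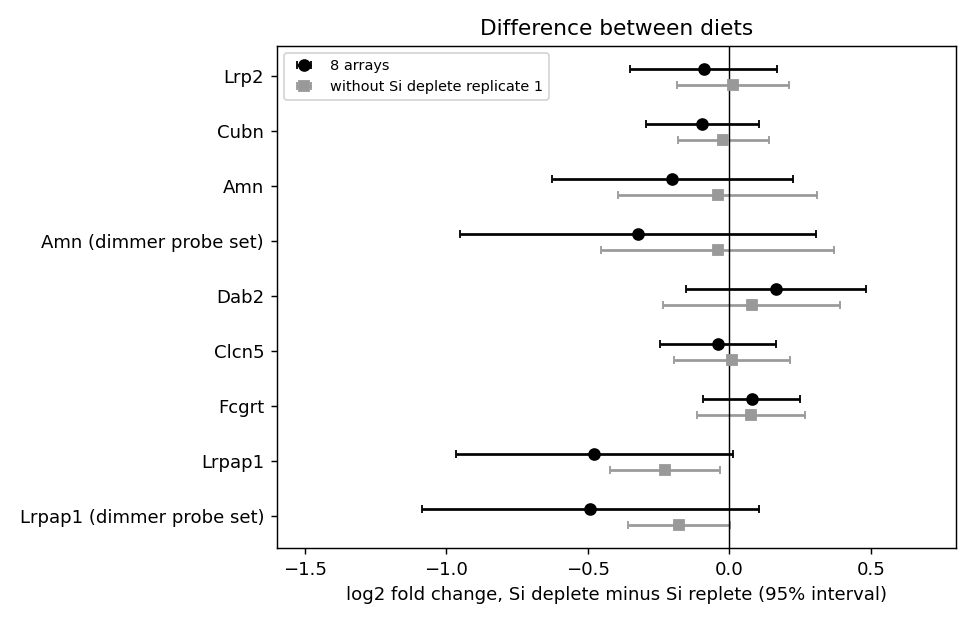
Log2 fold change (x axis, Si deplete minus Si replete) with its 95% interval from limma for each probe set, over 8 arrays (black circles) and without Si deplete replicate 1 (grey squares). With 8 arrays every interval includes 0; the Lrpap1 estimates of -0.48 and -0.49 move to -0.23 and -0.18 without that array.

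Dab2, the adaptor, ran the other way in that kidney. Its log2 levels were 11.78, 11.50, 11.41 and 11.40 in Si deplete and 11.08, 11.37, 11.28 and 11.69 in Si replete kidneys, so that Si deplete replicate 1 was the highest of all. The groups overlapped through Si replete replicate 4, and the log2 fold change was 0.17 (standard error 0.14, 95% interval -0.15 to 0.48, adjusted p = 0.612 from limma), or 0.08 without Si deplete replicate 1, 0.073 without Si replete replicate 1 and 0.28 without Si replete replicate 4. Dab2 is also made by macrophages and endothelium. Beside it, the mean level of 11 macrophage and myeloid markers was 5.93 to 6.63 in the Si deplete kidneys, against 5.28 to 6.20 in the Si replete. Of the 11 log2 fold changes, 10 were above 0 (50.0% of all genes were) and none passed the threshold, and 3 markers were dim (mean under 4). Without Si deplete replicate 3, Ptprc passed as higher, but calls over all probe sets were not counted for that fit. The mean of 6 endothelial markers was 7.95 to 8.58 and 8.16 to 8.39. Their part in the Dab2 values was not tested.

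Fcgrt was the steadiest of the members that lie well above the lower end of the scale, with a range of 0.24 over the 8 kidneys. Its log2 levels were 9.71, 9.77, 9.71 and 9.60 in Si deplete and 9.59, 9.63, 9.53 and 9.72 in Si replete kidneys. Si deplete replicate 1 did not stand apart here. The log2 fold change was 0.08 (standard error 0.08, 95% interval -0.09 to 0.25, adjusted p = 0.657 from limma), and it was 0.08 (95% interval -0.11 to 0.27) without that array.

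Clcn5 had log2 levels of 1.59, 1.86, 1.62 and 1.87 in Si deplete and 1.84, 1.70, 1.79 and 1.76 in Si replete kidneys. The probe set lay near the lower end of the scale, where 51.3% of all probe sets had a mean under 4, and a change of the Clcn5 transcript could go unseen on it. The log2 fold change was -0.04 (standard error 0.09, adjusted p = 0.867 from limma), or 0.0081 without Si deplete replicate 1, and it is not read as evidence that ClC-5 mRNA was alike in both diets.

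Partners in a complex need not move alike, so the change of one gene was set against that of another within each array, for 6 pairs. None of the pairs changed unequally past an adjusted p of 0.1 over the 6 (exact 2-sided permutation tests over 70 arrangements). The smallest p these allow is 0.0286, which for a single pair at that value adjusts to 0.171 over the 6, so no pair alone could have passed. Lrp2 and Cubn differed in their change by 0.00 (standard error 0.06, exact permutation p = 1). Lrp2 less Lrpap1, the receptor against its chaperone, came to the largest of the 6 values at 0.39 (standard error 0.18), with an exact permutation p of 0.0857 and an adjusted p of 0.514, and to 0.24 without Si deplete replicate 1. Cubn less Amn came to 0.11 (standard error 0.17), Lrp2 less Dab2 to -0.26 (standard error 0.24) and Lrp2 less Fcgrt to -0.17 (standard error 0.13), and without that array these were 0.02, -0.07 and -0.06. Lrp2 less Clcn5, with Clcn5 near the lower end, came to -0.05 (standard error 0.11). With these standard errors, unequal changes of about the size of those of Dab2 and Lrpap1 could not be told from the spread between kidneys.

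The kidney with low receptor levels was low in other proximal tubule genes and high in injury genes. Relative to the Si replete mean, Si deplete replicate 1 was at -0.40 for Lrp2, -0.32 for Cubn and -0.68 for the brighter Amn probe set, and the mean of the 22 proximal tubule markers was at -0.72 in it. It was the lowest of the 8 arrays for 18 of the 22 markers. In Si deplete replicates 2 to 4 this mean was 0.08, 0.05 and -0.15, and in Si replete kidneys it was -0.16 to 0.24. In Si deplete replicate 1, the mean of 7 markers of the thick ascending limb and distal tubule was -0.13. Podocyte (-0.53), erythroid (-0.46) and endothelial (-0.29) markers were also below the Si replete mean in it. In Si deplete replicates 2 to 4, podocyte markers were at -0.18, -1.02 and -0.10 and erythroid markers at 0.07, -0.83 and -0.98. Endothelial markers were at -0.05, 0.34 and 0.18 in these kidneys. Markers of the collecting duct (0.12), of fibroblasts and mural cells (0.29), of macrophages and myeloid cells (0.46) and of lymphocytes (0.55) were above that mean in Si deplete replicate 1. In Si deplete replicates 2 to 4 the collecting duct was at -0.27, -0.32 and 0.03, and fibroblasts and mural cells at 0.87, 0.00 and 1.19. Macrophages and myeloid cells were at 0.87, 0.17 and 0.73 there, and lymphocytes at 0.65, -0.03 and 0.74. Si replete replicate 1 was at 0.30 for fibroblasts and mural cells, and Si replete replicate 2 at 0.12 for the collecting duct.

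Tubule injury markers (10 genes, with Havcr1, Lcn2 and Spp1 among them) had mean log2 levels of 9.93 to 11.3 in the Si deplete kidneys, against 8.91 to 9.80 in the Si replete, and relative to the Si replete mean they were at 2.03 in Si deplete replicate 1 and at 0.67 to 1.43 in the other Si deplete kidneys. None of the 10 passed, although 8 had an unadjusted p under 0.05 and 8 separated the groups, all with Si deplete higher (background 18.5% and, for higher levels, 6.45% of genes). Havcr1, which encodes kidney injury molecule 1, was 11.7 ± 0.89 (SD, n = 4) against 8.02 ± 1.46 (SD, n = 4), a log2 fold change of 3.66 (adjusted p = 0.134 from limma). Without Si deplete replicate 3, 4 of the 10 passed as higher (Clu, Havcr1, Spp1 and Vim), but calls over all probe sets were not counted for that fit. The levels of Lrp2 and Cubn in Si deplete replicates 2 to 4 lay between -0.13 and 0.10 of the Si replete mean, in kidneys whose injury markers were 0.67 or more above it. Whether injury markers had a part in the low receptor levels of Si deplete replicate 1 was not tested.

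**Figure D3:**
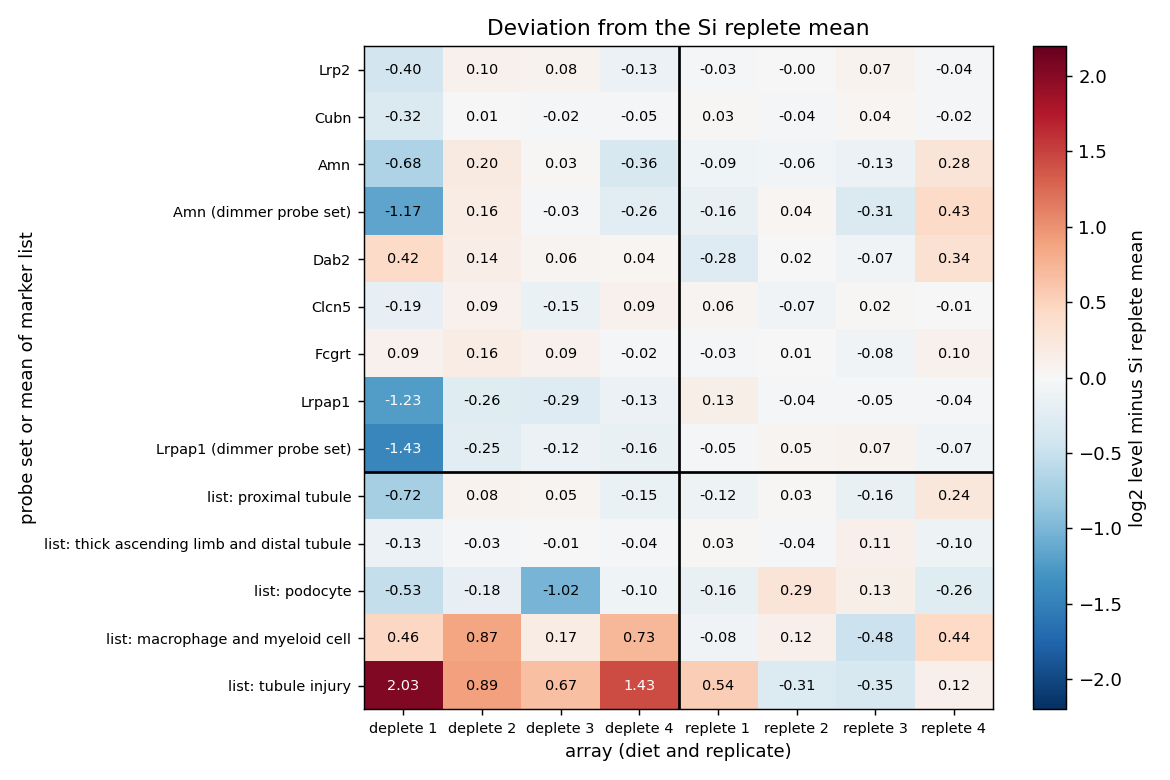
Log2 level minus the Si replete mean (colour and printed value) for the 9 probe sets (above the line) and the mean of 5 marker lists (below it), with an array in each column. Si deplete replicate 1 is low for Lrp2 (-0.40), Cubn (-0.32), Amn, Lrpap1 and the proximal tubule list (-0.72) and high for Dab2 (0.42) and tubule injury (2.03).

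Proximal tubule markers had a median log2 fold change of -0.20, beside 0.00 over all 14217 genes and -0.10 over the 9 member probe sets. Of the 22, 18 were below 0 and none passed, and 2 had an unadjusted p under 0.05, while 50.0% of all genes were above 0 and 18.5% had such a p. The smallest p-values were those of the peptidase Mme (-0.52, standard error 0.20), the fructokinase Khk (-0.50, standard error 0.20) and the organic anion transporter Slc22a6 (-0.51, standard error 0.24), at adjusted p-values between 0.29 and 0.356 by limma. Without Si deplete replicate 1 the median was -0.05. Podocyte markers, from the cells that hold the filter in front of the tubule, had mean levels of 7.80 to 8.72 and 8.56 to 9.12, and all 5 were below 0, with a median of -0.57 and none past the threshold. Collecting duct markers had a median of -0.10, thick ascending limb and distal tubule markers one of -0.05, fibroblast and mural cell markers 0.29, lymphocyte markers 0.30 (5 of 7 dim) and erythroid markers -0.42, and none of the genes in these lists passed. Without Si deplete replicate 3, Col1a1 of the fibroblast list and Cd3e and Cd3g of the lymphocyte list passed as higher. Calls over all probe sets were not counted for that fit.

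The other pathway lists covered the rest of the route from ligand to lysosome, with 126 genes measured. None of the 126 passed in limma (background 0.204% of genes on their brightest probe set), 20 had an unadjusted p under 0.05, or 15.9%, against 18.5% of all genes, and 13 separated the groups, against 11.9% of genes. Without Si deplete replicate 3, 3 of them passed, Clu and Ctsz as higher and Rbp4 as lower, but calls over all probe sets were not counted for that fit. The median log2 fold change of the 126 was 0.02. The shares are near those of all genes.

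Among 15 receptors of the LDL receptor family and sorting receptors the median was 0.11. Scarb1, the high-density lipoprotein receptor, was at 5.38 to 6.84 in the Si deplete kidneys, against 4.45 to 5.32 in the Si replete. Its log2 fold change of 0.88 (standard error 0.32) became 0.53 without Si deplete replicate 1. Sort1, which encodes sortilin, had 0.22 (standard error 0.09) and Lrp4 -0.18 (standard error 0.09), with adjusted p-values of 0.268 to 0.371 for the 3 genes.

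Filtered ligands and vitamin carriers (17 genes, 5 of them dim, median -0.05) held the widest differences. The values are RNA levels in the kidney and do not measure the protein that is filtered. Lcn2, a siderophore-binding protein that megalin takes up and that injured tubules make, was at 10.3 to 13.3 against 7.996 to 9.95, a log2 fold change of 2.70 (standard error 0.66). Clu, which encodes clusterin, a further megalin ligand, was at 12.6 to 13.7 against 11.6 to 12.3 (1.17, standard error 0.25). Both genes are in the list of tubule injury as well. Transthyretin (Ttr), the carrier of thyroxine and of the retinol-binding protein, was -0.65 (standard error 0.22). The 3 had adjusted p-values by limma between 0.152 and 0.245. Their log2 fold changes without Si deplete replicate 1 were 2.12 (Lcn2), 0.96 (Clu) and -0.54 (Ttr).

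The clathrin coat and its adaptors (20 genes, median 0.12, or 0.05 without Si deplete replicate 1) had 6 genes with an unadjusted p under 0.05 (18.5% of all genes did), all with Si deplete higher. Ap2b1, a subunit of the AP-2 adaptor, was at 9.31 to 9.54 against 8.90 to 9.19, with groups apart and a log2 fold change of 0.31 (standard error 0.09). Hip1 (0.35, standard error 0.11) and Hip1r (0.50, standard error 0.18), which tie clathrin to actin, followed, at adjusted p-values of 0.211 to 0.256 for the 3 genes. Their log2 fold changes without Si deplete replicate 1 were 0.26 (Ap2b1), 0.29 (Hip1) and 0.32 (Hip1r). Endosome sorting and recycling (26 genes) had a median of 0.01. There, Ehd4 was 0.42 (standard error 0.11), Hgs, which sorts ubiquitinated cargo, 0.35 (standard error 0.11) and the retromer subunit Vps29 -0.16 (standard error 0.07), at adjusted p-values of 0.176 to 0.334.

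Endosome acidification, by the proton pump and chloride-proton exchangers (23 genes, median -0.06), had 0 genes with an unadjusted p under 0.05 (18.5% of all genes did). Its smallest p-values were those of the pump subunits Atp6v1b2 (0.23) and Atp6v0a1 (0.29) and of the accessory protein Atp6ap2 (-0.14), at adjusted p-values of 0.423 to 0.436. Their log2 fold changes without Si deplete replicate 1 were 0.13, 0.37 and -0.08. Lysosomal degradation (25 genes, median 0.07) held a pair of cathepsins with larger differences. Ctsz was at 7.79 to 8.64 in the Si deplete kidneys, against 6.83 to 7.70 in the Si replete (1.00, standard error 0.22), and Ctsd was at 11.5 to 12.9 and 11.1 to 11.7 (0.86, standard error 0.27). The lysosomal channel gene Mcoln1 was -0.25 (standard error 0.08). The 3 had adjusted p-values by limma between 0.157 and 0.239. Their log2 fold changes without Si deplete replicate 1 were 0.98 (Ctsz), 0.60 (Ctsd) and -0.20 (Mcoln1).

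**Figure D4:**
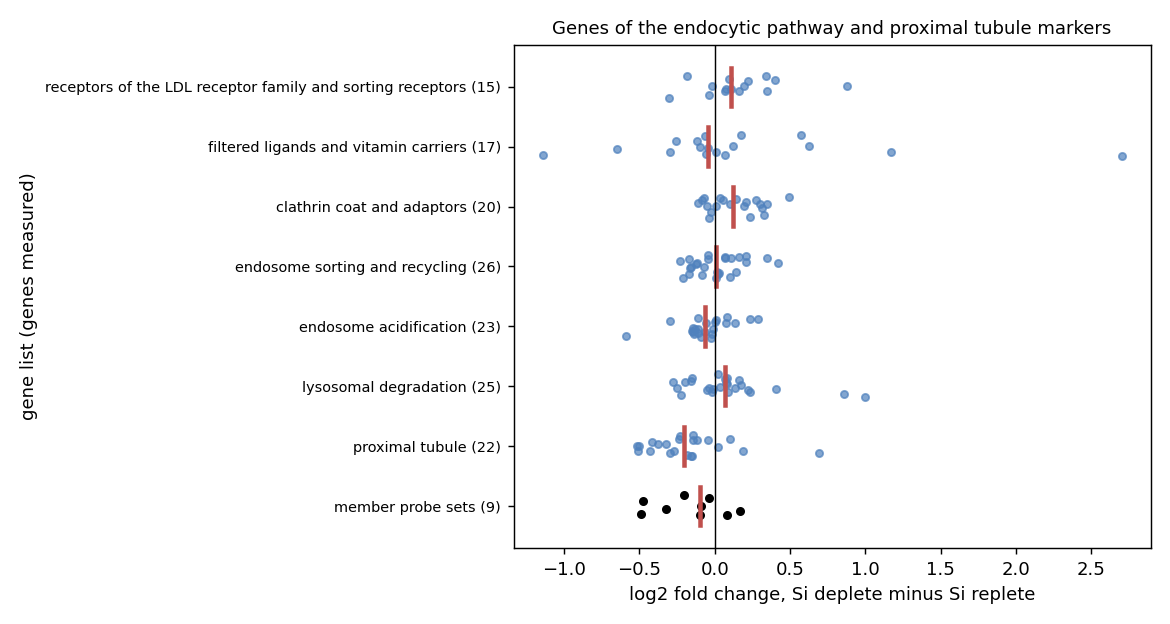
Log2 fold change (x axis, Si deplete minus Si replete) of each gene of the pathway lists and of the proximal tubule markers on its brightest probe set (blue points), and of the 9 member probe sets (black points), with the median of each list as a red bar. Medians lie between -0.20 and 0.12, and Lcn2 lies farthest to the right at 2.70.

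The genes most like Lrp2 and Cubn were sought by the root mean square difference of levels over the 8 arrays after each gene's own mean was subtracted, among 7524 other genes with a mean log2 level of 6 or more. For Lrp2 these were Zfp496 (0.040), the mitochondrial aldehyde dehydrogenase Aldh2 (0.045), Fbxo9 (0.047), Rhot1 (0.048) and Unkl (0.049), and Cubn stood at rank 17 (0.0685). For Cubn they were Naprt (0.027), Umod, the uromodulin gene of the thick ascending limb (0.0315), the proton pump subunit Atp6v0d1 (0.035), Elovl5 (0.039) and Fam91a1 (0.040), with Lrp2 at rank 104 (0.0685). These 10 genes had log2 fold changes of -0.14 to -0.08, and each was lowest in Si deplete replicate 1; both follow from the choice by likeness over the same 8 arrays. Amn was at rank 2048 for Lrp2 and 4203 for Cubn, Fcgrt at 1836 and 1900, Lrpap1 at 5372 and 5847 and Dab2 at 5817 and 5800.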

How the data were processed

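RNA of whole left kidneys, from 4 Si deplete and 4 Si replete rats, was hybridized to Affymetrix rat genome arrays. The values deposited by the authors are log2 levels per probe set from gcRMA with an m-estimator summarization (the submitters' processing notes name GCRMA 2.36.0). This step was taken as it stands, and probe intensities were not analysed here. Of 31099 probe sets, 57 controls were left out. Array medians were 3.80 to 3.92, and the number of arrays limits the precision.

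Si deplete was compared with Si replete by limma 3.58.1 (lmFit and eBayes, R 4.3.3). P-values were adjusted by Benjamini-Hochberg over all 31042 probe sets, and 0.1 was the threshold, as the study's methods set for its false discovery rate. Listed genes stand for their brightest probe set, and genes without a probe set of their own do not count as measured. Of the probe sets, 20826 have 1 symbol in the platform annotation, 436 several and 9780 none. By gene ID, 20758 matched RefSeq assembly GRCr8, with 0 symbols changed. Member pairs were compared by an exact permutation test. Arrays of 31042 probe sets were simulated with independent normal noise of each probe set's own spread, and with no array that stood apart. There, limma recovered 84% of 100 with a log2 change of 1 and 100% of 100 with a log2 change of 2. Of its 211 calls, 27 were false. The real arrays share spread across probe sets (first principal component 42.1% of the variance), so these rates need not hold for them.

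The genes and lists were chosen with earlier results of these data known. Named genes are all members, the 3 with the smallest p of each pathway list and of the proximal tubule list, Havcr1, and the 5 most like Lrp2 and Cubn. The fit was repeated with a trend on intensity, with the robust prior, with weights for arrays, without probe sets of mean under 4, after median or quantile scaling, with the replicate number as a block, without each array, on the mean of the probe sets per gene, at 0.05 and with Storey's q (lambda 0.5).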

Additional observations from a re-analysis of the deposited data

Results flagged for a closer look

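In 128 groups of 4 values looked at, 10 held a value far from the other 3, by a gap to its neighbour above Dixon's 95% critical share of the group's range; chance would give 6.4. Si deplete replicate 1 was the far value, on the low side, for both Lrpap1 probe sets (gap of 0.856 of the range on the brighter, 0.902 on the dimmer), for Khk (0.833) and for Elovl5 (0.836), and on the high side for Scarb1 (0.87). Si replete replicate 1 was far on the high side for the brighter Lrpap1 probe set (0.95), for Ctsd (0.912) and for Rbp4 (0.861), Si replete replicate 4 for the brighter Amn probe set (0.836), and Si deplete replicate 3 for Rbp4 (0.889).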

How the results depend on the processing

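Member probe sets past the threshold stayed at 0 higher and 0 lower under all 17 alternatives (limma; 0 of 9 at an unadjusted p under 0.05 with 8 arrays), and no adjusted p of a member fell under 0.241. Of 143 alternative log2 fold changes of members, 141 kept their direction. The others were Lrp2 and Clcn5, which went from -0.09 to 0.014 and from -0.04 to 0.0081 without Si deplete replicate 1. With single arrays left out, Lrp2 ranged from -0.15 to 0.014, Clcn5 from -0.085 to 0.0081, Cubn from -0.13 to -0.02, Lrpap1 from -0.59 to -0.23 and from -0.62 to -0.18, Dab2 from 0.073 to 0.28, Fcgrt from 0.052 to 0.11, and Amn from -0.33 to -0.04 and from -0.49 to -0.04. Among pairs, Lrp2 less Cubn ranged from -0.025 to 0.035 and Lrp2 less Clcn5 from -0.14 to 0.0092, changing sign, Cubn less Amn from 0.0043 to 0.21, Lrp2 less Dab2 from -0.38 to -0.07, Lrp2 less Fcgrt from -0.22 to -0.06 and Lrp2 less Lrpap1 from 0.24 to 0.52, and no pair alone could have passed in these tests (smallest p 0.0286). Pathway genes that passed went from 0 higher and 0 lower to 3 higher (Clu, Ctsz and Lcn2) with the replicate block, and with single arrays left out to between 0 and 2 higher and between 0 and 1 lower. These were Clu and Ctsz (higher) and Rbp4 (lower), all without Si deplete replicate 3, a fit for which calls over all probe sets were not counted. Of the 10 tubule injury markers, 6 passed with the replicate block, and Spp1 passed with the intensity trend and with dim probe sets left out. Arrays that share a replicate number had deviations from their group means that correlated at -0.09 to 0.09, and 4 of 8 arrays correlated best with their own number. The paper states that each day a rat of every group was killed and processed, but the sample titles give no day. Whether the replicate number marks such a day cannot be told from these values, and the main fit does not use it as a pairing. With the replicate block, calls over all probe sets went from 47 to 104 and no member passed (0 and 0 member probe sets); for the pairs the smallest p it allows is 0.125, so none could pass. Clcn5 has no value once probe sets with a mean under 4 are left out.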

Other observations

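Rbp4, which encodes the retinol-binding protein that megalin takes back from the filtrate, had a pattern that no member shared; it was chosen after its values were seen. In replicates 1 to 4 its log2 levels were 5.48, 5.63, 9.25 and 5.17 on the Si deplete diet, against 7.92, 7.44, 7.36 and 7.39 on the Si replete diet, so that 3 Si deplete kidneys lay below and 1 lay above every Si replete kidney. The log2 fold change was -1.14 (standard error 0.79, adjusted p = 0.525 from limma), and -2.10 (standard error 0.17, adjusted p = 0.0124) without Si deplete replicate 3; the array left out there is the one with the far value.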
